A study of Mus musculus with 3 samples.

Results

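The 10 genes described here set how easily a T cell dies. They were taken from the count table by name, 10 of its 18029 genes. *Bcl2*, *Bcl2l1*, *Mcl1*, *Bcl2a1b* and *Bcl2a1d* are anti-apoptotic members of the Bcl2 family, *Bcl2l11* is a BH3-only activator of death, *Bax* and *Bak1* are the pore formers, and *Fasl* and *Fas* are a death ligand and its receptor. Lethally irradiated B6D2F1 recipients received B6 BM, B6 T cells and TEa TCR transgenic T cells, and were treated daily from day 0 to day 6 with saline or with cyclosporin A (CSA, 5 or 50 mg/kg). All 3 groups carried the same graft, and no ungrafted or T cell-free control was among the samples. Spleens were taken on day 7, and those of 2 mice were combined into 1 hashtagged pool, giving 3 pools from 6 mice in each group. The sorted T cells of both lineages, CD4+ and CD8+, entered 1 droplet capture per group, so an effect of the capture and an effect of the treatment cannot be told apart, and p-values measure the spread between pools of 1 capture.

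T cells are removed through a mitochondrial and a death receptor pathway. In the mitochondrial pathway, Bcl2, Bcl-xL (from *Bcl2l1*), Mcl1 and A1 (from the *Bcl2a1* genes) hold Bax and Bak1 in check, and BH3-only proteins such as Bim (from *Bcl2l11*) release them, after which the mitochondrial outer membrane is permeabilised and caspases are activated. In the death receptor pathway, Fas ligand on a killer cell engages Fas on its target. Naive T cells live on Bcl2, which interleukin 7 maintains, and activated T cells express more Fas ligand and A1. CSA inhibits calcineurin and thereby keeps NFAT transcription factors out of the nucleus, and *Fasl* is a textbook NFAT target.

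The members lie on separate chromosomes except for a few pairs. In mm10, the build of the deposited counts, *Bcl2* spans chr1:106538178-106714274 and *Fasl* spans chr1:161780689-161788495, both on the minus strand. *Bcl2l11* spans chr2:128126038-128162547 (plus strand), *Bcl2l1* chr2:152780668-152831728 (minus), *Mcl1* chr3:95658788-95663176 (plus), *Bax* chr7:45461697-45466898 (minus), *Bak1* chr17:27019810-27029009 (minus) and *Fas* chr19:34290666-34327772 (plus). All are annotated as protein-coding genes. *Bcl2a1b* (chr9:89199209-89207827, plus strand) and *Bcl2a1d* (chr9:88723285-88731914, minus strand) are near-identical copies. Their coding sequences of 516 bases differ at 6 positions, and the longest identical run is 217 bases, so a read of either can match both. Another copy, *Bcl2a1a*, is no member and differs from *Bcl2a1d* at 7 and from *Bcl2a1b* at 11 coding positions, with identical runs of up to 314 and 217 bases, so reads can match it too and the separate values of the copies are uncertain. The first 90 coding bases of each are shown because they hold the positions that could tell reads near the start of the coding sequence apart, and capitals mark the 2 bases that differ.
Bcl2a1b: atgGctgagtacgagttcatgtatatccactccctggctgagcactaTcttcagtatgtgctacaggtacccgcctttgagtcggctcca
Bcl2a1d: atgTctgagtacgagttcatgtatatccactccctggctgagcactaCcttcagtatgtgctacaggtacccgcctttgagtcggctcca

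The promoter of *Fasl* is shown because NFAT, the factor CSA keeps out of the nucleus, binds a short GGAAA core. The 250 bases before the RefSeq start site (GRCm38.p6, chr1:161788496-161788745, minus strand) hold 2 matches to GGAAA or its reverse complement TTTCC, marked in capitals, at -226 and -30 from the start site.
Fasl promoter: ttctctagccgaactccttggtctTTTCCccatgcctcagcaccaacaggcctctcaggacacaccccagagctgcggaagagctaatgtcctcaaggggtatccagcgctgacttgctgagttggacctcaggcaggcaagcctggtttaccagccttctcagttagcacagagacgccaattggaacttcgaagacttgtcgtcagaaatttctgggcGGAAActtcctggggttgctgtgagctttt
The promoters of *Mcl1* and *Bak1* also held 2 matches, those of *Bcl2*, *Bax*, *Bcl2a1b*, *Bcl2a1d* and *Fas* 1 each, the 3 start sites of *Bcl2l1* 1 to 3, and the start sites of *Bcl2l11* 0. Of 32851 promoters of this length, 55.6% held at least 1 such match and 21.4% at least 2. A match of these letters describes the sequence only and is not a measured binding site.

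Counts of unique molecular identifiers (UMIs) were analysed for 10091 CD4+ and 10833 CD8+ cells, without 280 TEa cells. A pool held 875 to 1479 CD4+ cells with 3994968 to 7592334 UMIs, and 692 to 1615 CD8+ cells with 4392100 to 11454636 UMIs. Within a pool and lineage, the members had between 63 (*Fas*) and 2490 (*Mcl1*) UMIs. Median UMIs per cell were 3097 (saline), 4396 (5 mg/kg) and 5979.5 (50 mg/kg) in CD4+ cells, and 4108, 6121.5 and 7183 in CD8+ cells. *Cd8a* had no UMI in any CD4+ cell and *Cd4* none in any CD8+ cell. Markers of other cells were higher at 50 mg/kg than with saline: the summed level of 5 erythroid genes was 3.89 to 17.6 CPM (UMI counts scaled to the library's total) in the saline CD8+ pools and 23.7 to 48.1 at 50 mg/kg, that of 3 plasma cell genes 1.30 to 5.92 and 182 to 326, and that of 5 B cell genes 155 to 169 and 332 to 363, with no gene of the first 2 lists and 1 gene of the B cell list at 0 in both groups. The same sums at 5 mg/kg were 4.87 to 10.1, 0.356 to 59.9 and 175 to 212 CPM. Their part in the results was not tested. The 3 captures shared 218 of 20986 distinct barcodes.

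Counts were summed per pool and lineage and compared between groups with pools as replicates (n = 3 in each group) in edgeR (quasi-likelihood F-test). Each p was adjusted over all genes tested by the Benjamini-Hochberg method, with a threshold of 0.05. Levels are UMI counts scaled to a common library size (CPM, with TMM factors), and changes are on the log2 scale with their standard error. Both scaling and transcript length bear on every dose comparison. With scaling by library size in place of TMM, the median change of all genes moved from about 0 to -0.37 and -0.45 at 5 and 50 mg/kg in CD4+ cells and to -0.43 and -0.53 in CD8+ cells. Changes also followed transcript length: at 50 mg/kg, the median change was 0.67 among the 20% of measured genes with the shortest transcripts and -0.62 among the 20% with the longest in CD4+ cells, and 0.79 and -0.69 in CD8+ cells. *Bcl2* (7191 bases) and *Bcl2l11* (5036 bases) fall among the longest, and *Fas* (1481 bases), *Bax* (1100 bases), *Bcl2a1d* (863 bases) and *Bcl2a1b* (817 bases) among the shortest. The values from an added fit with this length trend removed, called length-adjusted, therefore stand beside the main values. Whether the trend came from the captures or from the treatment cannot be told apart.

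All 10 members had enough counts to be tested in both lineages. In CD4+ cells, 5 members passed at 5 mg/kg (4 higher and 1 lower, against 52.0% of all genes tested, 26.1% higher and 25.9% lower) and 7 at 50 mg/kg (5 higher and 2 lower, against 70.6% of all genes tested, 34.7% higher and 36.0% lower). In CD8+ cells, 6 passed at 5 mg/kg (4 higher and 2 lower, against 60.2% of all genes tested, 29.8% higher and 30.3% lower) and 9 at 50 mg/kg (6 higher and 3 lower, against 74.0% of all genes tested, 37.0% higher and 37.0% lower). These shares lie close to or above that of all genes and are no result about the members as a group. The median change of the members at 50 mg/kg was 0.18 in CD4+ and 0.23 in CD8+ cells, where that of all genes was -0.01 in CD4+ and 0.00099 in CD8+ cells. With the length trend removed, 3 members passed at 5 mg/kg in CD4+ cells, against 30.7% of all genes tested. The comparisons with saline at both doses share the saline pools.

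*Bcl2*, the survival factor of resting T cells, was the anti-apoptotic member that fell. In CD4+ cells its level was 122, 118 and 121 CPM in the saline pools, 117, 106 and 123 CPM at 5 mg/kg and 51.9, 64.97 and 65.9 CPM at 50 mg/kg. The pools at 5 mg/kg overlapped those of saline, and all 3 pools at 50 mg/kg lay well below both other groups. The change was -0.05 ± 0.07 at 5 mg/kg (adjusted p = 0.535, edgeR) and -0.98 ± 0.07 at 50 mg/kg (adjusted p = 1.33e-13). Fewer cells of a type rich in *Bcl2* and less *Bcl2* RNA per cell cannot be told apart in these sums. In CD8+ cells the pools held 65.04, 77.1 and 79.1 CPM under saline, 115, 91.1 and 79.2 CPM at 5 mg/kg and 35.6, 36.2 and 35.3 CPM at 50 mg/kg. The 3 pools at 50 mg/kg were nearly alike and below every other pool, while those at 5 mg/kg spread widely, the lowest of them level with the highest saline pool. The change was 0.33 ± 0.13 at 5 mg/kg (adjusted p = 0.0535, edgeR) and -1.05 ± 0.14 at 50 mg/kg (adjusted p = 0.00014).

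The size of the *Bcl2* fall depended on the length trend. Length-adjusted, the change at 50 mg/kg was -0.34 in CD4+ cells (adjusted p = 0.000371, edgeR) and -0.33 in CD8+ cells (adjusted p = 0.0994), which ended the call in CD8+ cells. At 5 mg/kg *Bcl2* was higher than with saline in the length-adjusted fit, by 0.34 (adjusted p = 0.000454, edgeR) and 0.82 (adjusted p = 0.00265). Without the pool of 5 mg/kg with the highest level (pool 1) the change on the main scale in CD8+ cells was 0.20 (adjusted p = 0.0385, edgeR), without the lowest (pool 3) 0.46 (0.000655) and without saline pool 3 0.40 (0.0393). With all pools the CD8+ rise passed in DESeq2, in cells of at least 2000 UMIs and with no filter. Its call thus rested on the pools included and on the fit. Library size scaling gave -0.41 in CD4+ cells at 5 mg/kg, which passed (adjusted p = 2.56e-06, edgeR), and -0.09 in CD8+ cells. Between the doses *Bcl2* fell by 0.92 in CD4+ and 1.39 in CD8+ cells (adjusted p = 6.85e-12 and 8.8e-05, edgeR), and the length-adjusted change between doses was -0.68 and -1.16 (adjusted p = 7.53e-08 and 0.000949).

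*Mcl1*, a short-lived member that T cells need to survive, was higher at 50 mg/kg by a small amount. Its CD4+ pools held 276, 280.2 and 273 CPM under saline, 268, 256 and 271 CPM at 5 mg/kg and 306, 295 and 309.7 CPM at 50 mg/kg, and its CD8+ pools held 224, 227 and 222 CPM, then 222, 203 and 217 CPM and then 262, 267 and 254 CPM in the same order. In each lineage all 3 pools at 50 mg/kg lay above all others. The change at 50 mg/kg was 0.14 ± 0.04 in CD4+ cells (adjusted p = 0.0035, edgeR) and 0.22 ± 0.04 in CD8+ cells (adjusted p = 4.3e-05). The values at 5 mg/kg, -0.06 ± 0.04 and -0.07 ± 0.04, did not pass (adjusted p = 0.245 and 0.18, edgeR). With library size scaling they were -0.42 and -0.49 and passed as falls (adjusted p = 2.75e-11 and 2.05e-10, edgeR). The rise at 50 mg/kg kept its direction length-adjusted (0.21 and 0.34) and was turned by library size scaling (-0.30 and -0.31). *Bcl2l1*, which encodes Bcl-xL, had 30.3 ± 5.08 CPM (SD, n = 3 pools) with saline and 35.4 ± 5.12 CPM at 50 mg/kg in CD4+ cells, and 19.4 ± 1.59 and 17.9 ± 3.12 CPM in CD8+ cells. Its groups overlapped in both lineages, and its changes of 0.23 ± 0.13 and -0.12 ± 0.11 did not pass (adjusted p = 0.111 and 0.33, edgeR). Its changes at 5 mg/kg of 0.06 ± 0.13 and 0.20 ± 0.12 did not pass either (adjusted p = 0.722 and 0.141, edgeR). Without saline pool 3 or without the third pool at 50 mg/kg, the CD4+ change was 0.34 or 0.31 and passed (adjusted p = 0.0241 and 0.0367, edgeR). With all pools, the CD4+ rise at 50 mg/kg also passed outside the cycling clusters and with no filter. The CD8+ fall of *Bcl2l1* at 50 mg/kg passed both with library size scaling and length-adjusted, and its lowest value over all fits was -0.65.

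The 2 A1 copies, anti-apoptotic genes induced by activation and NF-kB, were higher at both doses. *Bcl2a1b* went from 32.2, 31.1 and 33.7 CPM with saline to 49.2, 55.7 and 46.5 CPM at 5 mg/kg and 52.8, 48.6 and 46.2 CPM at 50 mg/kg in CD4+ pools, and from 25.7, 25.3 and 28.5 CPM to 46.8, 45.7 and 48.1 CPM and then 43.9, 41.4 and 46.8 CPM in CD8+ pools. Every treated pool lay above every saline pool, and the 2 doses overlapped. The change was 0.64 ± 0.09 and 0.60 ± 0.08 in CD4+ cells (adjusted p = 5.13e-08 and 3.01e-08, edgeR) and 0.82 ± 0.08 and 0.74 ± 0.08 in CD8+ cells (adjusted p = 8.92e-10 and 1.85e-09). *Bcl2a1d* had 26.1 ± 0.773, 38.5 ± 4.75 and 46.1 ± 2.82 CPM (SD, n = 3 pools) in CD4+ cells and 19.6 ± 0.593, 34.5 ± 2.69 and 32.3 ± 2.07 CPM in CD8+ cells with saline, 5 and 50 mg/kg. It rose by 0.57 ± 0.10 at 5 mg/kg in CD4+ and 0.83 ± 0.09 in CD8+ cells (adjusted p = 3.13e-06 and 1.27e-08, edgeR). It changed by 0.82 ± 0.09 at 50 mg/kg in CD4+ and 0.72 ± 0.09 in CD8+ cells (adjusted p = 1.18e-10 and 4.1e-08, edgeR). These are the shortest transcripts of the 10, and neither rise remained in the length-adjusted fit: at 50 mg/kg *Bcl2a1b* was -0.23 in CD4+ and -0.28 in CD8+ cells and *Bcl2a1d* -0.25 in CD8+ cells, values that passed as falls (adjusted p = 0.019, 0.00246 and 0.0185, edgeR), and *Bcl2a1d* was 0.01 in CD4+ cells (adjusted p = 0.91). All 4 length-adjusted values at 5 mg/kg lay between -0.09 and -0.02 and did not pass. Library size scaling ended the calls for *Bcl2a1d* at 5 mg/kg and *Bcl2a1b* at 50 mg/kg in CD4+ cells. It also ended that for *Bcl2a1d* at 50 mg/kg in CD8+ cells.

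**Figure D1:**
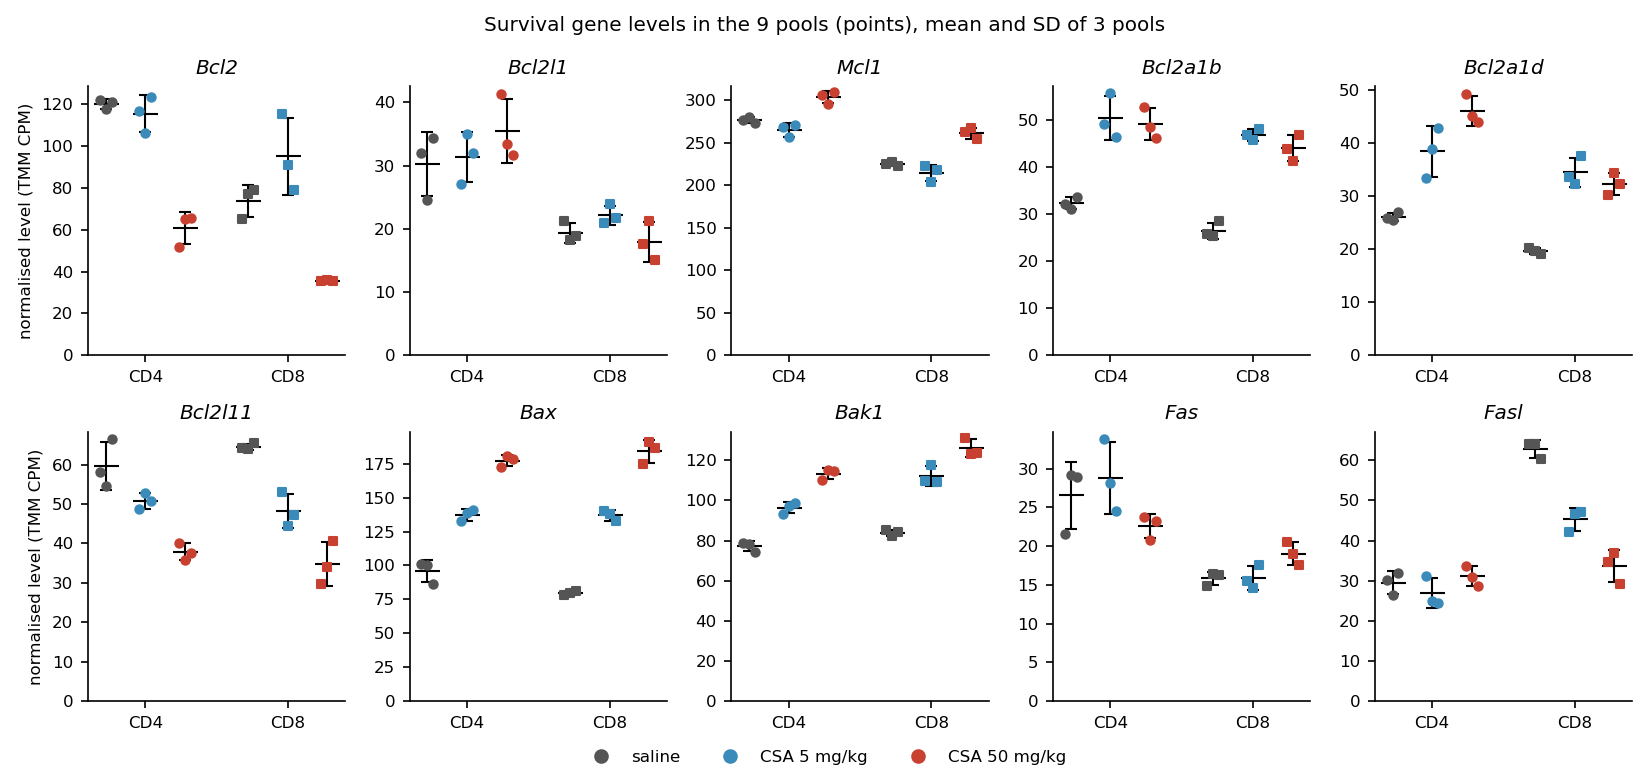
Level of each of the 10 members in CPM (TMM scaling, linear axis) in each of the 9 pools, with CD4+ sums as circles and CD8+ sums as squares and the 3 treatment groups side by side. *Bcl2* is lowest in the 3 pools at 50 mg/kg in both lineages, *Bax* rises from saline to 5 to 50 mg/kg, and *Fasl* steps down with dose in CD8+ cells while its CD4+ groups overlap.

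Among the members that promote death, *Bcl2l11* fell and both pore formers rose. *Bcl2l11*, which encodes Bim, had 58.1, 54.5 and 66.4 CPM in the CD4+ saline pools, 48.7, 52.8 and 50.8 CPM at 5 mg/kg and 40.2, 35.8 and 37.7 CPM at 50 mg/kg. In CD8+ pools it had 64.2, 64.1 and 65.4 CPM under saline, 52.9, 44.5 and 47.3 CPM at 5 mg/kg and 29.6, 33.9 and 40.7 CPM at 50 mg/kg. No pool of one group overlapped another in either lineage, and the level stepped down with dose. The change at 50 mg/kg was -0.66 ± 0.08 in CD4+ cells (adjusted p = 1.41e-09, edgeR) and -0.88 ± 0.08 in CD8+ cells (adjusted p = 1.82e-09). Length-adjusted, both falls were smaller and still passed, at -0.27 and -0.42 (adjusted p = 0.00392 and 0.000231, edgeR). The lower dose gave a change of -0.23 ± 0.08 in CD4+ and -0.43 ± 0.08 in CD8+ cells (adjusted p = 0.0132 and 0.000124, edgeR). Length-adjusted these were 0.03 and -0.10 and neither passed (adjusted p = 0.786 and 0.385, edgeR). The CD4+ call at 5 mg/kg was also lost without saline pool 3 (-0.14) and without pool 1 of 5 mg/kg (-0.20).

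*Bax*, which oligomerises in the mitochondrial outer membrane once activated, had the largest rise of the 10 at 50 mg/kg on the main scale in both lineages. Its CD4+ pools held 101, 100.4 and 86.5 CPM under saline, 132, 139 and 141 CPM at 5 mg/kg and 173, 180.4 and 178 CPM at 50 mg/kg. Its CD8+ pools held 78.1, 79.7 and 80.9 CPM, then 140.3, 138 and 133 CPM and then 175, 191 and 186 CPM. The 3 groups did not overlap in either lineage. The change at 50 mg/kg was 0.89 ± 0.05 in CD4+ and 1.21 ± 0.05 in CD8+ cells (adjusted p = 3.91e-18 and 2.47e-18, edgeR). Length-adjusted, 0.21 and 0.41 remained (adjusted p = 0.00105 and 2.86e-08, edgeR). The changes of 0.52 ± 0.06 and 0.78 ± 0.05 at 5 mg/kg passed (adjusted p = 3.76e-10 and 3.37e-13, edgeR), and length-adjusted they were -0.0046 and 0.12 and did not (adjusted p = 0.962 and 0.064).

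*Bak1*, the partner pore former, rose by less than *Bax* on the main scale. It had 79.04, 78.5 and 74.5 CPM under saline, 93.3, 97.01 and 98.9 CPM at 5 mg/kg and 110.2, 115 and 114 CPM at 50 mg/kg in CD4+ pools. In CD8+ pools it had 85.3, 82.1 and 84.4 CPM, then 109.6, 118 and 109 CPM and then 131, 123 and 124 CPM in the same order. All groups were separate in both lineages. The changes of 0.32 ± 0.06 and 0.55 ± 0.06 in CD4+ cells and 0.42 ± 0.05 and 0.59 ± 0.05 in CD8+ cells passed (adjusted p of 1.66e-05, 1.91e-11, 1.45e-07 and 4.89e-11, edgeR). All 4 also passed length-adjusted, at 0.19, 0.31, 0.28 and 0.36. With library size scaling the value at 5 mg/kg was -0.04 in CD4+ and -0.01 in CD8+ cells, no longer a rise, and at 50 mg/kg it was 0.11 and 0.06 and the calls were lost (adjusted p = 0.0641 and 0.324, edgeR).

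**Figure D2:**
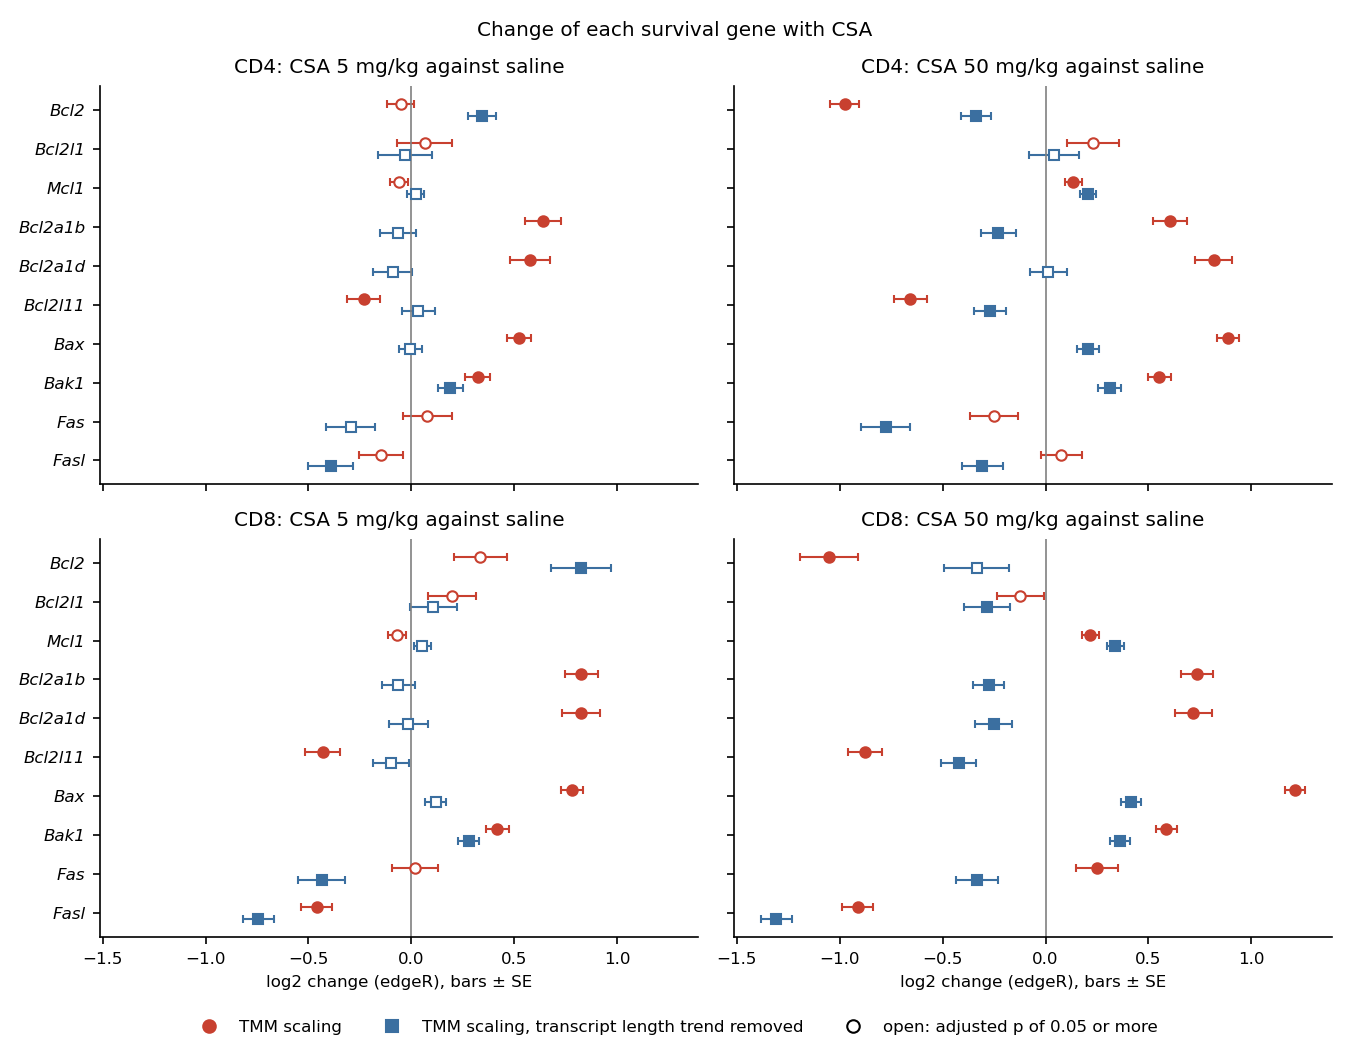
Log2 change against saline (± standard error) of each member at 5 and 50 mg/kg in CD4+ and CD8+ cells, with the main fit as red circles and the length-adjusted fit as blue squares, filled where the adjusted p passed 0.05. The *Bcl2a1b* and *Bcl2a1d* rises lie near or below 0 when length-adjusted, whereas the CD8+ *Fasl* fall at 50 mg/kg is -0.91 in the main and -1.31 in the length-adjusted fit.

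*Fasl*, the ligand of cytotoxic effectors, fell with dose in CD8+ cells. Its CD8+ pools held 64.1, 64.1 and 60.2 CPM under saline, 42.1, 46.6 and 47.1 CPM at 5 mg/kg and 34.6, 36.99 and 29.2 CPM at 50 mg/kg, and the 3 groups did not overlap. The change was -0.46 ± 0.08 at 5 mg/kg and -0.91 ± 0.08 at 50 mg/kg (adjusted p = 7.42e-06 and 1.38e-11, edgeR). Length-adjusted, it was -0.74 and -1.31 (adjusted p = 6.61e-09 and 2.36e-14, edgeR). In CD4+ cells the pools held 30.3, 26.3 and 31.8 CPM, then 31.2, 25.04 and 24.4 CPM and then 33.7, 30.8 and 28.8 CPM in the same order. They overlapped across all groups, and the changes of -0.15 ± 0.11 and 0.08 ± 0.10 did not pass (adjusted p = 0.263 and 0.507, edgeR). The length-adjusted CD4+ values of -0.39 and -0.31 were lower than saline and passed (adjusted p = 0.00466 and 0.00884, edgeR), as did the value of -0.36 at 50 mg/kg with library size scaling.

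*Fas*, the receptor, had the fewest UMIs of the 10 and gave no stable call on the main scale. It had 26.6 ± 4.34, 28.8 ± 4.64 and 22.6 ± 1.55 CPM (SD, n = 3 pools) with saline, 5 and 50 mg/kg in CD4+ cells. In CD8+ cells it had 15.9 ± 0.859, 15.9 ± 1.503 and 19.001 ± 1.48 CPM. The change at 50 mg/kg was -0.25 ± 0.12 in CD4+ and 0.25 ± 0.10 in CD8+ cells (adjusted p = 0.0535 and 0.0298, edgeR), so the CD8+ value passed and the CD4+ value did not. The changes of 0.08 ± 0.12 and 0.02 ± 0.11 at 5 mg/kg did not pass (adjusted p = 0.61 and 0.902, edgeR). The CD8+ call at 50 mg/kg was lost without saline pool 1 (0.21), saline pool 3 (0.27), or pool 1 or 2 of 50 mg/kg (0.20 and 0.25), and its direction turned with library size scaling (-0.28) and length-adjusted (-0.33). In CD4+ cells the fall passed without saline pool 1 (-0.36), without pool 3 of 5 mg/kg (-0.25) and length-adjusted (-0.78, adjusted p = 1.5e-06, edgeR). It also passed with library size scaling, outside the cycling clusters and with no filter.

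Between the doses, 7 members differed in CD4+ cells (4 higher and 3 lower at 50 mg/kg, against 41.7% of all genes tested, 20.2% higher and 21.6% lower) and 7 in CD8+ cells (3 higher and 4 lower, against 41.5% of all genes tested, 20.2% higher and 21.2% lower). *Bax* was higher at 50 than at 5 mg/kg by 0.36 ± 0.05 and 0.43 ± 0.05, and *Mcl1* by 0.20 ± 0.04 and 0.29 ± 0.04, in CD4+ and CD8+ cells. *Bcl2l11* was lower by 0.42 and 0.45, and CD8+ *Fasl* by 0.45. The adjusted p of these 7 values lay between 6.14e-08 and 0.000432 (edgeR). CD4+ *Bak1* was higher by 0.23 ± 0.06 (adjusted p = 0.00105, edgeR), a call lost length-adjusted (adjusted p = 0.0873, edgeR). In CD4+ cells the smaller calls for *Bcl2a1d* (0.24 ± 0.09) and *Fas* (-0.33 ± 0.12) were each lost without pool 1 of 5 mg/kg (0.17 and -0.21) or pool 2 of 5 mg/kg (0.25 and -0.33), that of *Bcl2a1d* also without pool 1 of 50 mg/kg (0.20) and that of *Fas* without pool 2 of 50 mg/kg (-0.27). In CD8+ cells *Bcl2l1* (-0.32 ± 0.12) lost its call without pool 2 or 3 of 5 mg/kg (-0.26 and -0.34) or pool 1 or 3 of 50 mg/kg (-0.31 and -0.19), and *Bak1* (0.17 ± 0.05) without pool 3 of 5 mg/kg (0.15) or pool 1 of 50 mg/kg (0.14). The CD8+ *Bak1* call was also lost length-adjusted and with library size scaling. CD4+ *Fasl*, which did not pass, passed without pool 1 of 5 mg/kg (0.33, adjusted p = 0.0234, edgeR). CD4+ *Bcl2l11* and CD8+ *Fasl* lost their calls when the cycling clusters were left out (-0.16 and -0.20).

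The 2 lineages of a pool come from the same mice and were compared with the pool as a block, on 1 scale for both. With saline, 9 members differed between CD8+ and CD4+ cells (3 higher and 6 lower in CD8+ cells, against 41.0% of all genes tested, 21.8% higher and 19.2% lower). *Fasl* had 66.4, 66.2 and 62.4 CPM in CD8+ cells and 29.7, 25.8 and 31.2 CPM in CD4+ cells, a difference of 1.17 ± 0.08 (adjusted p = 4.82e-17, edgeR). *Bcl2* had 67.4, 79.7 and 81.9 CPM in CD8+ and 119.7, 115 and 118 CPM in CD4+ cells, a difference of -0.62 ± 0.11 (adjusted p = 0.00218, edgeR). *Fas* (-0.67 ± 0.10), *Bcl2l1* (-0.56 ± 0.10), *Mcl1* (-0.22 ± 0.04), *Bcl2a1d* (-0.33 ± 0.09) and *Bax* (-0.18 ± 0.05) were also lower in CD8+ cells, and *Bak1* (0.20 ± 0.05) and *Bcl2l11* (0.19 ± 0.07) were higher. Outside the cycling clusters the *Bcl2* difference was -0.04 (adjusted p = 0.851, edgeR) and 4 members passed, against 23.1% of all genes tested. The calls for *Bcl2l11* and *Bax* were lost without saline pool 1 (0.18 and -0.14) or 2 (0.13 and -0.15), that of *Bcl2a1d* without saline pool 3 (-0.28), and *Bcl2a1b* (-0.20 ± 0.09) passed without pool 3 of 50 mg/kg (-0.20).

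The lineage difference of *Fasl* was smaller at 50 mg/kg. There it had 35.2, 37.5 and 29.7 CPM in CD8+ and 32.98, 30.1 and 28.1 CPM in CD4+ cells, and the difference of 0.16 ± 0.09 did not pass (adjusted p = 0.166, edgeR). Outside the cycling clusters *Fasl* was still higher in CD8+ cells at 50 mg/kg and passed (adjusted p = 0.00642, edgeR). Tested directly, the change at 50 mg/kg in CD8+ cells minus that in CD4+ cells was -1.01 ± 0.12 for *Fasl* (adjusted p = 1.06e-08), 0.30 ± 0.07 for *Bax* (adjusted p = 0.00108) and 0.47 ± 0.15 for *Fas* (adjusted p = 0.0175, all by edgeR). These were the 3 members that passed, against 20.3% of all genes tested, 9.54% higher and 10.7% lower. The lineages shared a capture, and the length-adjusted values were close to the main ones (-0.99, 0.21 and 0.44). The *Fas* call was lost without saline pool 2 (0.42), saline pool 3 (0.43) or pool 1 or 2 of 50 mg/kg (0.45 and 0.41). Both the *Bax* and *Fas* calls were lost outside the cycling clusters (0.21 and 0.47) and in DESeq2 (0.32 and 0.48). *Bcl2l1* and *Bcl2l11*, which did not pass (-0.37 ± 0.14 and -0.25 ± 0.11), passed without single pools: *Bcl2l1* without saline pool 3 (-0.50) or pool 2 of 50 mg/kg (-0.54), and *Bcl2l11* without pool 3 of 50 mg/kg (-0.40). With all pools, both passed with library size scaling, *Bcl2l1* also with no filter and *Bcl2l11* also outside the cycling clusters. At 5 mg/kg 0 members passed in edgeR and 0 in DESeq2, against 4.53% of all genes tested, 2.54% higher and 1.99% lower, while *Fasl*, *Bcl2l11* and *Bax*, 3 of 10, had an unadjusted p under 0.05. *Bcl2* passed there without pool 3 of 5 mg/kg (0.54) and *Bax* without saline pool 3 (0.31).

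Within CSA at 5 mg/kg, 5 members differed between the lineages (against 35.1% of all genes tested), and within CSA at 50 mg/kg 6 did (2 higher and 4 lower, against 31.0% of all genes tested, 16.8% higher and 14.2% lower). At 50 mg/kg *Bcl2l1* (-0.93 ± 0.10, adjusted p = 1.19e-10, edgeR), *Bcl2* (-0.72 ± 0.14, adjusted p = 0.00513) and *Bcl2a1d* (-0.45 ± 0.08, adjusted p = 5.82e-06) were lower in CD8+ cells by the most. The *Bcl2* call was lost without pool 3 of 50 mg/kg (-0.65). *Mcl1* (-0.16 ± 0.04) was also lower there, and *Bak1* (0.21 ± 0.05) and *Bax* (0.11 ± 0.04) were higher. The *Mcl1*, *Bak1* and *Bax* calls were lost in DESeq2, and that of *Bax* also without any 1 of 5 pools.

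The authors divided the CD4+ cells into 13 clusters and the CD8+ cells into 9, C0 onward, from the same RNA counts. Levels between clusters are therefore a description with no test, given as CPM of the cluster's own UMI sum in pools with at least 10 of its cells. The authors' names were checked against their markers, a marker counting as higher where its CPM over all pools exceeded that of the lineage's other cells by any margin. In CD4+ C7, named cytotoxic by the authors, 1 of 4 cytotoxic markers was higher, and *Gzma*, *Prf1* and *Nkg7* were not. In CD8+ C8, named exhausted by the authors, 5 of 5 exhaustion markers were higher, *Havcr2* and *Lag3* among them. Of these, *Tox* (97.5 against 96.8 CPM in other cells), *Pdcd1* (229 against 221) and *Tigit* (195 against 186) were barely higher. *Pdcd1* and *Tox* were higher in C4 (494 and 222) and C5 (380 and 244). Both clusters are therefore called by number. The deposited tables number the CD8+ clusters differently and hold 2 parts of a divided cluster, which were taken as C0 (Cd226hi) and C1 (Cd226lo). *Cd226* had 296 CPM in the first and 112 in the second, and the files do not state this match. *Bcl2* was highest in naive cells of the CD4+ lineage. With saline it had 754 ± 243 CPM (SD, n = 3 pools) in naive C9 and 245 ± 32.2 in follicular helper C4, against 155 ± 22.7 in Cd226hi effectors (C0) and 58.2 ± 6.74 in the cycling Cd226lo cluster (C3). In CD8+ cells the Tcf7hi cluster (C5) had 317 ± 18.1 and naive C7 244 ± 34.3, and cycling C4 had the lowest value, 48.5 ± 4.78. Neighbours in the middle of the CD4+ order, from C8 (198 ± 76.7) to C1 (126 ± 46.2), did not differ beyond their spread.

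With saline *Fasl* was highest in CD8+ C8 with 193 ± 57.3 CPM and in CD8+ Cd226hi effectors (C0) with 134 ± 17.7, values whose spreads overlap, and lowest among CD8+ clusters in naive C7 with 9.51 ± 3.49 from 4 UMIs. Naive C7 had 21.0 ± 4.22 CPM from 16 UMIs at 5 mg/kg and 6.10 ± 6.17 from 6 UMIs at 50 mg/kg. Among CD4+ clusters C0 was highest with 74.7 ± 7.75, and Tcf7hi C2 had 8.94 ± 2.97. Naive cells should lack the ligand, and levels near these are not read as expression. *Bcl2l11* was also highest in CD8+ C8 and C0, with 219.8 ± 72.2 in C8 and 148 ± 14.9 in C0, followed by 138 ± 34.4 in C5, which did not differ from C0 beyond its spread, against 27.2 ± 17.3 in naive cells. *Mcl1* was highest in naive CD4+ cells with 549 ± 42.9 and in CD8+ C0 with 371 ± 14.4.

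**Figure D3:**
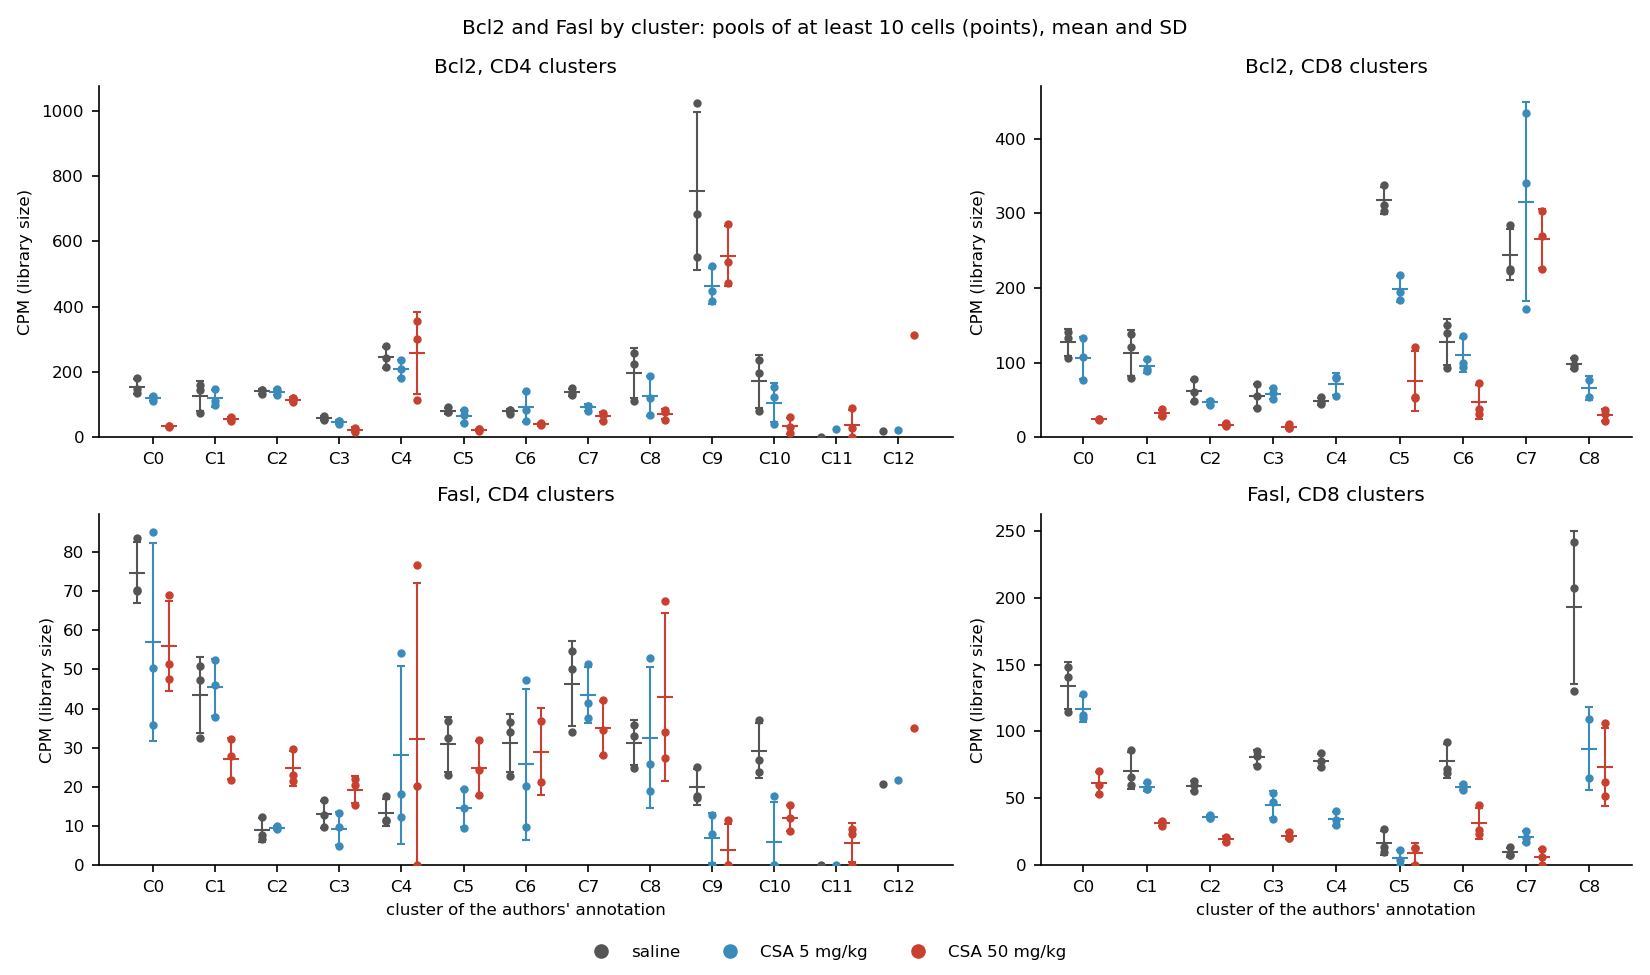
Level of *Bcl2* and *Fasl* by cluster in CPM of the cluster's own UMI sum, with 1 point for each pool that held at least 10 cells and colours for the treatment groups. Naive CD4+ C9 has the highest *Bcl2* in all 3 groups, and the CD8+ clusters C8 and C0 have the highest *Fasl* with saline.

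Dose comparisons inside a cluster hold the authors' cell class fixed. They could be fitted in 11 of 13 CD4+ and 8 of 9 CD8+ clusters, and the Treg (C11) and Th17 (C12) CD4+ clusters and cycling CD8+ C4 had too few cells in some pools. A member passed the filter on low counts in 82 CD4+ and 71 CD8+ pairs of gene and cluster. At 50 mg/kg, 26 of the 82 CD4+ pairs passed (17 higher and 9 lower, against 30.8% of all pairs, 15.1% higher and 15.7% lower), and 39 of the 71 CD8+ pairs (19 higher and 20 lower, against 43.7% of all pairs, 21.4% higher and 22.3% lower). At 5 mg/kg 9 CD4+ pairs (6 higher and 3 lower, against 13.6% of all pairs, 7.74% higher and 5.86% lower) and 19 CD8+ pairs (13 higher and 6 lower, against 23.8% of all pairs, 12.7% higher and 11.2% lower) passed. The counts at 5 mg/kg went to 4 of the CD4+ pairs without saline pool 2 and 5 without pool 3 of 5 mg/kg, and to 12 of the CD8+ pairs without saline pool 2. Of the calls, 8 CD4+ and 12 CD8+ pairs at 50 mg/kg and 9 and 11 at 5 mg/kg were lost without some 1 pool. Of all calls, 14 and 20 at 50 mg/kg and 1 and 4 at 5 mg/kg passed in the same direction length-adjusted.

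The CD4+ calls inside clusters at 5 mg/kg were rises of *Bcl2a1b* in C0 and C5 (0.90 and 0.85), *Bcl2a1d* in C5 and C7 (1.36 and 0.69), *Bak1* in C5 (0.63) and *Bax* in C7 (0.57), and falls of *Mcl1* in C5 (-0.42), *Bcl2l11* in C7 (-0.62) and *Bcl2* in C9 (-0.54). All 9 were lost without some 1 pool. In CD8+ cells *Bax* rose in C0, C2, C3, C5 and C8 (by 0.40 to 0.87), *Bcl2a1b* in C0, C2 and C3 (0.47 to 1.02), *Bcl2a1d* in C2 and C3 (0.60 and 0.73) and *Bak1* in C2, C3 and C5 (0.36 to 0.49). *Fasl* fell in C2, C3 and C8 (-0.44, -0.43 and -0.90), *Bcl2l11* in C2 and C8 (-0.56 and -1.19) and *Mcl1* in C3 (-0.27). Of these, *Bax* in C8, *Bcl2a1b* in C0, both of *Bcl2a1d*, *Bak1* in C3 and C5, *Fasl* in C3 and C8, both of *Bcl2l11* and *Mcl1* in C3 were lost without some 1 pool.

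*Bcl2* fell at 50 mg/kg in 7 of 8 CD8+ clusters and 7 of 11 CD4+ clusters. In CD8+ Cd226hi effectors (C0) it went from 127 ± 18.7 to 24.2 ± 0.758 CPM, a change of -1.83 ± 0.18 (adjusted p = 2.02e-22, edgeR, length-adjusted -1.15). In the Tcf7hi CD8+ cluster (C5) it went from 317 ± 18.1 to 75.6 ± 39.8, a change of -1.41 ± 0.20 (adjusted p = 3.71e-08, edgeR, length-adjusted -0.64). The naive clusters did not pass in either lineage. Naive CD8+ C7 had 244 ± 34.3 with saline and 266 ± 39.2 at 50 mg/kg (0.08 ± 0.32, adjusted p = 0.953, edgeR), and naive CD4+ C9 had 754 ± 243 and 555 ± 91.3 (-0.31 ± 0.17, adjusted p = 0.19). Follicular helper C4 (0.34 ± 0.30), Tcf7hi C2 (-0.10 ± 0.15) and cycling Cd226hi C6 (-0.96 ± 0.68) were the other CD4+ clusters that did not pass. The difference between naive and other clusters was not tested. In CD4+ C0 the level went from 155 ± 22.7 to 33.5 ± 0.697 (-1.75 ± 0.17, adjusted p = 3.11e-16, edgeR, length-adjusted -1.07). Of the 14 falls, 5 in each lineage passed length-adjusted.

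*Fasl* fell at 50 mg/kg in all 6 CD8+ clusters with enough counts, and all 6 falls passed length-adjusted. The largest was in cycling C3, from 80.6 ± 5.63 to 21.9 ± 2.58 CPM (-1.44 ± 0.16, adjusted p = 2.36e-11, edgeR), and the smallest in C0, from 134 ± 17.7 to 61.2 ± 8.62 (-0.54 ± 0.14, adjusted p = 0.000298). In C8 it went from 193 ± 57.3 to 73.5 ± 29.04 (-1.002 ± 0.27, adjusted p = 0.0031, edgeR). The C6 call (-0.97 ± 0.30) was lost without saline pool 3 (-0.76), without pool 3 of 50 mg/kg (-0.77) and in DESeq2 (-0.97). In CD4+ cells *Fasl* rose in 1 of 6 clusters, Tcf7hi C2, from 8.94 ± 2.97 to 24.7 ± 4.45 (1.61 ± 0.42, adjusted p = 0.00209, edgeR, length-adjusted 1.46), on 15 UMIs with saline and 42 at 50 mg/kg, a saline level within the spread of that in naive CD8+ cells (9.51 ± 3.49). That call was lost without pool 3 of 50 mg/kg (1.41).

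*Bax* rose in 7 of 8 CD8+ and 6 of 11 CD4+ clusters at 50 mg/kg, within the CD8+ lineage by 0.50 ± 0.12 in C1 to 1.48 ± 0.12 in C0, and 3 and 2 of these rises passed length-adjusted. *Bcl2l11* fell in 6 of 8 CD8+ and 2 of 8 CD4+ clusters, by the most in CD8+ C0 (-1.64 ± 0.16, adjusted p = 1e-21, edgeR, length-adjusted -1.18), and 2 and 1 of these falls passed length-adjusted. *Bak1* rose in 4 of 8 CD8+ and 2 of 8 CD4+ clusters, and 2 in each passed length-adjusted. The *Bcl2a1b* and *Bcl2a1d* rises passed in 4 and 3 CD8+ clusters and 2 and 3 CD4+ clusters, and 1 of the 12, *Bcl2a1d* in CD4+, passed length-adjusted. *Mcl1* rose in CD4+ C2 (0.38 ± 0.10) and CD8+ C0 (0.25 ± 0.08). Single left-out pools also ended the calls for *Bax* in CD4+ C4, C8 and C9 and CD8+ C5, *Bcl2l11* in CD8+ C5 and C6, *Bak1* in CD8+ C5, *Bcl2a1b* in CD4+ C5 and CD8+ C2, C3 and C6, and *Bcl2a1d* in CD4+ C7 and CD8+ C0, C2 and C6. *Bcl2l1* rose in CD4+ C1 (0.97 ± 0.30) and fell in CD8+ C2 (-0.51 ± 0.20), and *Fas* rose in CD4+ C5 (1.07 ± 0.46, adjusted p = 0.0495, edgeR). These last 3 calls rested on single pools, and none passed in DESeq2: *Bcl2l1* in C1 was 0.63 without saline pool 2 and 0.83 without pool 1 of 50 mg/kg, and *Bcl2l1* in C2 lay between -0.56 (without saline pool 2) and -0.23 (without pool 3 of 50 mg/kg) over the 5 left-out pools that ended its call. *Fas* in C5 lay between 0.73 (without saline pool 1) and 1.17 (without pool 2 of 50 mg/kg) over the 5 that ended its call. In naive CD8+ C7, 0 of the 5 members tested passed at 50 mg/kg in edgeR (against 3.43% of all genes tested there) and 0 in DESeq2, and 0 had an unadjusted p under 0.05 in either.

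**Figure D4:**
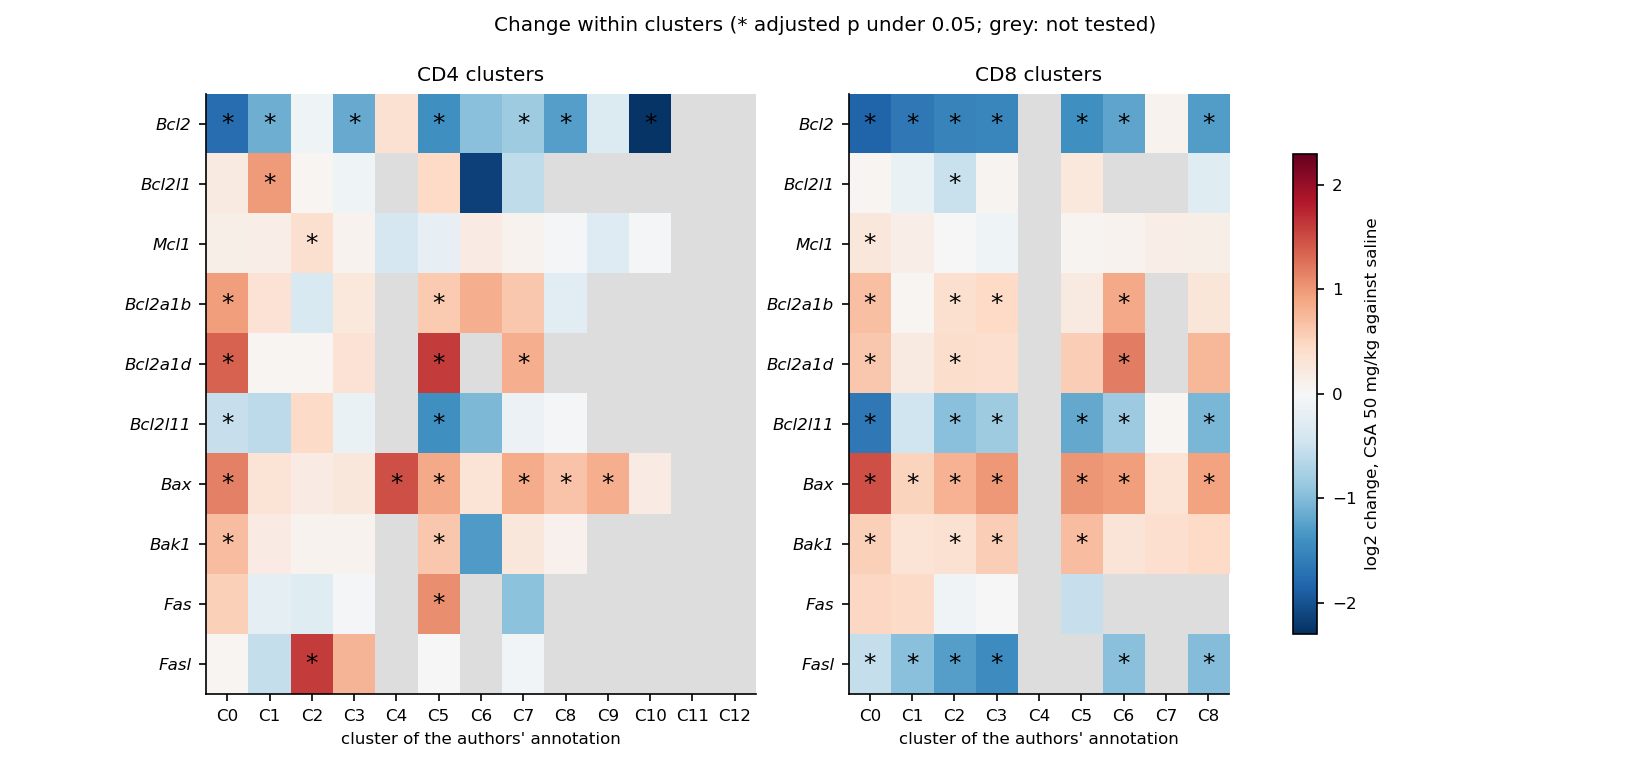
Log2 change at 50 mg/kg against saline of each member in each cluster that could be fitted, coloured from blue (lower) to red (higher), with * where the adjusted p passed 0.05 and grey where counts were too low. The *Bcl2* row is blue in every CD8+ cluster but naive C7, and the *Fasl* row is blue in the 6 CD8+ clusters tested.

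Cluster shares were unequal across the groups, so the levels were also averaged over clusters with fixed shares (10 CD4+ and 7 CD8+ clusters with at least 10 cells in every pool). This left out CD4+ C6, C11 and C12 and CD8+ C4 and C8. C4 held 21.9 ± 1.36% of CD8+ cells with saline (SD, n = 3 pools). In CD4+ cells the change of *Bcl2* at 50 mg/kg in these cells, with TMM scaling, was -1.15 as summed and -0.25 with shares fixed. That of *Bcl2l11* was -0.70 and -0.22. The fixed-share *Bcl2* level was 149 ± 6.05 CPM with saline and varied more between pools at 50 mg/kg, at 125 ± 29.6 CPM (SD, n = 3 pools). Follicular helper C4, second in *Bcl2* level, went from 18.1 ± 0.71% of CD4+ cells (SD, n = 3 pools) with saline to 1.47 ± 0.37% at 50 mg/kg. At 50 mg/kg it had as few as 11 cells in a pool. In CD8+ cells fixing the shares moved *Bcl2* from -1.33 to -1.22 and *Fasl* from -0.92 to -0.80. At 5 mg/kg the CD8+ *Fasl* value moved from -0.42 to 0.000604. *Bax* was 0.80 and 1.05 in CD4+ cells and 1.08 and 1.10 in CD8+ cells. With equal weight for each cluster the CD8+ *Bcl2* value at 50 mg/kg was -0.60.

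Ratios of UMIs within a pool do not depend on scaling, although they do on transcript length. The log2 ratio of the summed anti-apoptotic members to *Bcl2l11*, *Bax* and *Bak1* was 1.04, 1.04 and 1.10 in the CD4+ saline pools, 0.85, 0.77 and 0.83 at 5 mg/kg and 0.63, 0.56 and 0.59 at 50 mg/kg. In CD8+ pools it was 0.65, 0.70 and 0.67, then 0.54, 0.40 and 0.48 and then 0.21, 0.20 and 0.13 in the same order. It stepped down with dose in both lineages with no overlap of groups. The numerator holds long *Bcl2* and the short A1 copies, the denominator long *Bcl2l11* and short *Bax*, and no length-adjusted ratio was made. The ratio of *Bcl2* to *Bcl2l11*, both long transcripts, was 0.02, 0.27 and 0.27 in the CD8+ saline pools, 1.12, 1.03 and 0.74 at 5 mg/kg and 0.26, 0.09 and -0.21 at 50 mg/kg. It was thus higher at 5 mg/kg in all 3 pools, and at 50 mg/kg it overlapped saline. In CD4+ cells its means were 1.02 ± 0.13, 1.18 ± 0.15 and 0.68 ± 0.27 (SD, n = 3 pools). The ratio of *Fasl* to *Fas* in CD8+ pools went from 2.11, 1.97 and 1.88 with saline to 1.44, 1.67 and 1.42 at 5 mg/kg and 0.76, 0.96 and 0.73 at 50 mg/kg. In CD4+ pools it was 0.49, -0.15 and 0.14, then -0.11, -0.17 and -0.01 and then 0.51, 0.57 and 0.31 in the same order. Outside the cycling clusters, 5 of the ratio changes against saline moved and 7 stayed the same. An exact permutation test of 3 pools against 3 cannot give a two-sided p below 0.1, so these ratios are given with no test.

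**Figure D5:**
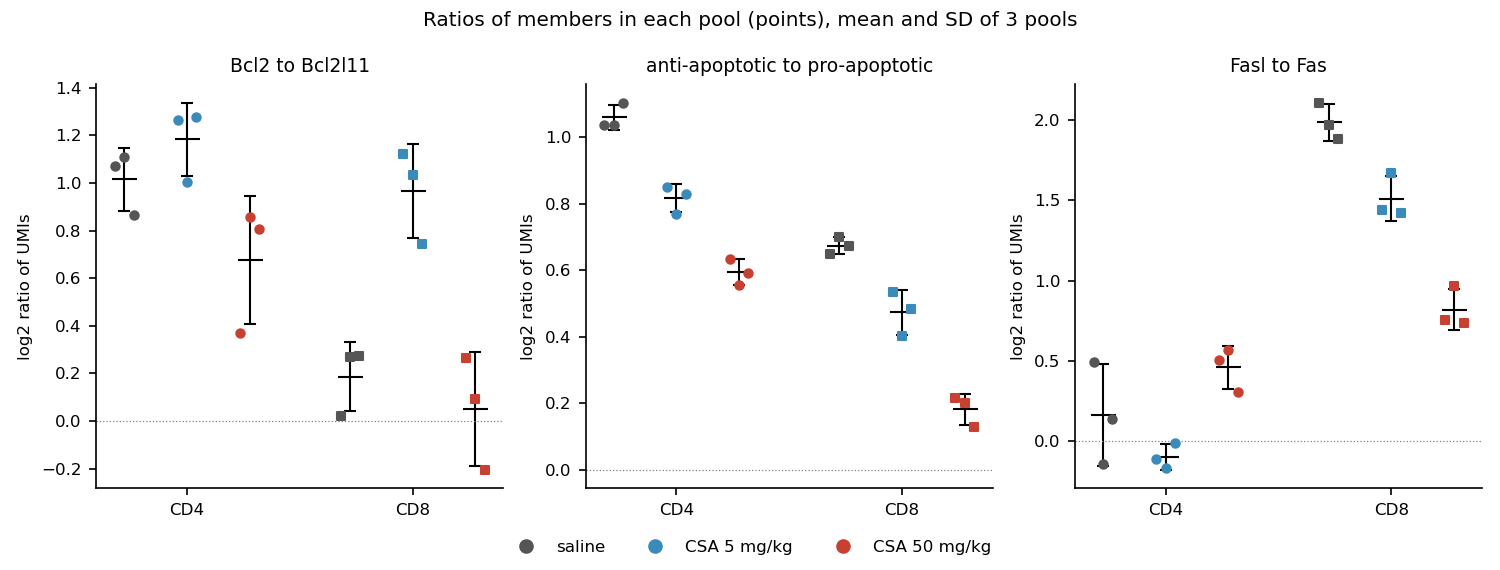
Log2 ratio of UMIs in each pool for *Bcl2* to *Bcl2l11*, the summed anti-apoptotic to the summed pro-apoptotic members, and *Fasl* to *Fas*, by lineage and treatment group. The anti-apoptotic to pro-apoptotic ratio steps down from saline to 50 mg/kg in both lineages, and the CD8+ *Fasl* to *Fas* ratio goes from a mean of 1.99 to 0.82.

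The genes whose levels were most like those of a member were found over 66 profiles, 1 for each lineage, cluster and group with at least 50000 UMIs, among 6107 genes of at least 20 CPM. These correlations describe profiles that share captures and depth, and carry no test. *Bcl2* was closest to *Jun* (Pearson's r = 0.79), *Socs3* and *Kbtbd11*. *Fasl* was closest to *Il18rap* (r = 0.74), *B4galnt1* and *Ifng* (r = 0.70). *Bax* was closest to *Eif1* (r = 0.82) and to the ribosomal genes *Rpl36al* and *Rpl13a*, *Bak1* to *Prelid1* (r = 0.85), *Actg1* and *Capzb*, and *Bcl2l11* to *Tagap* (r = 0.67). *Fas* was closest to *Il16* (r = 0.72) and *Tcf7* (r = 0.71), *Mcl1* to *Fam102a* (r = 0.77), *Bcl2l1* to *Nfkb2* (r = 0.64), *Bcl2a1b* to *Ybx3* (r = 0.69) and *Bcl2a1d* to *Ndfip1* (r = 0.76). Among the members, *Bcl2a1b* and *Bcl2a1d* were alike (r = 0.76), and they share sequence, and *Bcl2* and *Bak1* were opposed (r = -0.67).

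A wider list of 55 cell death genes, 52 of them in the count table, holds the other genes of these pathways. At 50 mg/kg, 18 rose and 14 fell among 48 tested in CD4+ cells (against 70.6% of all genes called), with a median change of 0.04, and 19 rose and 18 fell among 47 tested in CD8+ cells (against 74.0%), with a median of 0.09. The lower dose gave 13 rises and 10 falls in CD4+ cells (against 52.0%), and 15 rises and 9 falls in CD8+ cells (against 60.2%). The shares lie near those of all genes and are no result about the list. Of the calls at 50 mg/kg, 20 of 32 in CD4+ and 26 of 37 in CD8+ cells passed in the same direction length-adjusted. The largest falls in CD4+ cells were those of *Tnfsf10*, which encodes the death ligand TRAIL (44.1 ± 6.75 to 11.8 ± 1.09 CPM, -1.92 ± 0.12), of *Pmaip1*, the BH3-only Noxa (-1.47 ± 0.13), and of *Tnfrsf1b*, a receptor of tumour necrosis factor (-1.42 ± 0.08). The largest rises there were those of *Bad*, another BH3-only gene (1.11 ± 0.10), *Cycs*, which encodes cytochrome c (1.10 ± 0.06), and *Birc5*, which encodes survivin and is expressed in dividing cells (0.94 ± 0.05). *Birc5* turned to -1.43 outside the cycling clusters. In CD8+ cells *Tnfrsf1b* (101 ± 4.96 to 29.3 ± 1.75 CPM, -1.79 ± 0.07), the apoptosome gene *Apaf1* (-1.41 ± 0.09) and *Birc6*, an inhibitor of apoptosis (-1.38 ± 0.05), fell most. *Bbc3*, the BH3-only Puma (7.73 ± 0.191 to 20.1 ± 2.47 CPM, 1.38 ± 0.13), *Bad* (1.34 ± 0.08) and *Cycs* (1.11 ± 0.05) rose most. All 12 values had an adjusted p of at most 2.07e-10 (edgeR) and kept their calls length-adjusted.

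The TEa cells, an alloantigen-specific CD4+ clone, were too few for pool sums, with 123, 130 and 27 cells in the saline, 5 and 50 mg/kg groups. Over their summed UMIs *Bcl2* had 98.1 (95% exact Poisson interval 73.2 to 128.6), 77.1 (58.7 to 99.4) and 39.2 (17.9 to 74.4) CPM of the group's sum in that order, against 144, 109 and 54.3 in the other CD4+ cells, and *Fasl* had 17.0 (7.76 to 32.2), 13.1 (6.27 to 24.0) and 4.35 (0.11 to 24.2), intervals that cover counting error only.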

How the data were processed

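Sorted CD4+ and CD8+ T cells from the spleens of 3 treatment groups were profiled by 5′ droplet single-cell RNA sequencing. The table deposited by the authors holds raw UMI counts per gene and cell (mm10, Cell Ranger and Seurat 3.0.0 per the submitters' processing notes), and the tables of cells hold the authors' clusters, hashtag pools and fraction of mitochondrial UMIs (not used in a test). The tables of cells carry flags for doublets and likely dead cells, set for no cell left in them. The thresholds behind the authors' filters are not given in the sources used here, no further filter was added and no doublet caller was run.

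UMI counts of cells other than TEa cells were summed per hashtag pool and lineage, and per cluster with at least 10 cells in a pool. A pool and lineage held 3994968 to 11454636 UMIs, and precision is set by the 3 pools in each group. Sums were tested in edgeR 4.0.16 (R 4.3.3; filterByExpr, TMM, robust quasi-likelihood F-test, all 9 pools in 1 fit), with Benjamini-Hochberg adjustment over all genes tested and a threshold of 0.05. Lineages were compared with the pool as a block, since both lineages of a pool come from the same mice. Deviations from the group means correlated between the lineages of a pool by 0.02 to 0.35 (median 0.14, 9 pools). Scripts were tested on simulated data. Alternatives were DESeq2 1.42.0, library size scaling, no filter, other cell sets, other blocks, each pool left out, and, chosen after seeing the data, removal of a smooth trend of log2 CPM on transcript length (longest protein-coding transcript in GENCODE). Promoter sequences came from RefSeq tables (GRCm38.p6), and coding sequences and gene positions from GENCODE. Python 3.11.15 with numpy 2.4.6, pandas 2.3.3, scipy 1.17.1 and matplotlib 3.10.9 made the tables and plots.

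The text gives all 10 members in both comparisons with saline, and the other comparisons by those that passed and by counts. Of the wider cell death list, the text names for each lineage the 3 rises and 3 falls at 50 mg/kg that were largest, out of called genes whose mean level reached 10 CPM. For each member, up to 3 genes with the most similar log2 (CPM + 10) profile are named. The members and lists were chosen with earlier results of these data known. Cluster markers other than those named here were used to check the authors' cluster names.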

Additional observations from a re-analysis of the deposited data

Results flagged for a closer look

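The change at 50 mg/kg against saline differed between the lineages for 3 members, by the test of the difference itself (CD8+ change minus CD4+ change, edgeR with the pool as a block, 3 pools per group). For *Fasl* the difference was -1.01 on the log2 scale, with a fall in CD8+ cells and overlapping groups in CD4+ cells, and its call held without each of the 9 pools and in DESeq2. For *Bax*, which rose in both lineages, it was 0.30, and for *Fas* 0.47. The *Bax* and *Fas* calls were lost in DESeq2 and outside the cycling clusters, and that of *Fas* also without any 1 of 4 pools.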

How the results depend on the processing

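The counts below are members, or pairs of member and cluster, past the threshold, and where a result changed the cause was not tested. With the transcript length trend removed, the CD4+ count at 5 mg/kg was 3, and the cluster counts were 1 (CD4+) and 6 (CD8+) at 5 mg/kg and 16 and 20 at 50 mg/kg. That fit turned the direction of *Bcl2* (0.34), *Bcl2a1b* (-0.063), *Bcl2a1d* (-0.090), *Bcl2l11* (0.034) and *Bax* (-0.0046) in CD4+ cells at 5 mg/kg and of *Bcl2a1b* (-0.23) and *Fasl* (-0.31) at 50 mg/kg. In CD8+ cells it turned *Bcl2a1b* (-0.063), *Bcl2a1d* (-0.016) and *Fas* (-0.44) at 5 mg/kg and *Bcl2a1b* (-0.28), *Bcl2a1d* (-0.25) and *Fas* (-0.33) at 50 mg/kg. Inside clusters it turned *Bcl2* in CD4+ C9 (0.025), *Bax* in CD8+ C2 (-0.034) and C3 (-0.045) and *Bcl2a1b* there (-0.11 and -0.037) at 5 mg/kg, and at 50 mg/kg *Bcl2a1b* in CD4+ C5 (-0.23) and CD8+ C0 (-0.34), C2 (-0.28) and C3 (-0.39) and *Bcl2a1d* in CD8+ C0 (-0.38) and C2 (-0.24). Library size scaling gave 5 members for the CD8+ minus CD4+ change at 50 mg/kg, and turned *Bak1* (-0.037) and *Fas* (-0.28) in CD4+ cells at 5 mg/kg, *Mcl1* (-0.30) and *Fasl* (-0.36) at 50 mg/kg, *Bak1* (-0.0060) and *Fas* (-0.41) in CD8+ cells at 5 mg/kg, *Mcl1* (-0.31) and *Fas* (-0.28) at 50 mg/kg, and *Mcl1* in CD8+ C0 (-0.30) and *Bak1* in C2 (-0.017) at 50 mg/kg. DESeq2 gave cluster counts of 4 (CD4+) and 12 (CD8+) at 5 mg/kg and, with the pool block, 5 members between the lineages with saline and 1 for the CD8+ minus CD4+ change at 50 mg/kg. Outside the cycling clusters, 4 members differed between the lineages with saline, *Birc5* in CD4+ cells was -1.43 at 50 mg/kg and the lineage difference of *Bcl2l11* at 5 mg/kg was 0.42. Without a filter, 1 member passed for the CD8+ minus CD4+ change at 5 mg/kg. With each of 9 pools left out, the counts ranged from 4 to 5 and 7 to 8 at 5 and 50 mg/kg and 5 to 7 between doses in CD4+ cells, from 6 to 7, 8 to 9 and 5 to 7 in CD8+ cells, from 7 to 10 between lineages with saline, from 0 to 1 and 2 to 4 for the CD8+ minus CD4+ change at 5 and 50 mg/kg, and in clusters from 4 to 8 and 21 to 27 (CD4+) and 12 to 20 and 33 to 39 (CD8+). Same-numbered hashtag pools of different groups share only a number (correlations of -0.07 to 0.02 in CD4+ and -0.06 to 0.06 in CD8+ cells), and with that number as a replicate block the counts changed by less than 1.5 times, 162 single results kept their side of the threshold and 3 lost their call (*Bcl2a1d* in CD4+ C7 and *Fasl* in CD8+ C8 at 5 mg/kg, *Fas* in CD4+ C5 at 50 mg/kg). Without the pool block 48 single lineage results kept their side and 2 lost their call, *Bcl2l11* with saline (0.19) and *Bax* at 50 mg/kg (0.11). Fitting only the groups compared changed no call among 72 single results, and a minimum of 20 cells per pool and cluster none among 85. CD4+ C11 and C12 and CD8+ C4 could not be fitted. A pool and lineage held as few as 63 UMIs of *Fas*.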
